A study of Mus musculus with 6 samples.

Results

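The core genes of the circadian clock were examined in B cells from the spleens of WT BALB/c mice, cultured with or without CpG, an oligonucleotide agonist of the DNA sensor TLR9. The 10 genes were taken by symbol from the 23420 genes in the files. They are Per1, Per2, Per3, Cry1 and Cry2, which encode repressors, Arntl and Clock, which encode activators, Nr1d1 and Nr1d2, which encode the REV-ERB receptors, and the output gene Dbp. All 10 were found. B cells from 3 mice, 7 to 11 weeks old, were isolated with beads and kept for 4 hours, 10 M cells at 10 M per mL, either with CpG ODN 1826 at 10 μg/mL (CpG-stimulated, n = 3) or without it (unstimulated, n = 3). By the labels, replicate 3 was male in both groups and the other replicates were female. The hour at which spleens were taken is not given in the sources used here, and there was 1 time point, so these data hold levels and not rhythms.

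The mammalian clock is a feedback loop of transcription. The proteins CLOCK and BMAL1 (the product of Arntl) bind E-box sequences and switch on the Per and Cry genes, whose products then inhibit CLOCK and BMAL1. REV-ERBα and REV-ERBβ, made from Nr1d1 and Nr1d2, repress Arntl in a second loop by binding the sites that ROR receptors use. DBP activates genes through D-box sequences, while NFIL3 represses them there. Lymphocytes carry this clock as most other cells do, and Per1 and Per2 can also be induced directly by cAMP, glucocorticoid and other signals.

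Expression is given as log2 CPM (log2 of read counts per M reads), as the authors made it by quantile normalization and voom. A gene without reads has a value of -5.152 on this scale, which corresponds to 17.8 M reads counted on genes per sample. The value of 10 reads is -0.76. As samples were brought to 1 distribution by quantile normalization, the depth of single samples and any change in total RNA per cell are not visible. In these bulk samples, fewer cells that express a gene and less of its RNA per cell cannot be told apart.

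The sequences CLOCK-BMAL1 and DBP recognize were looked for in the 250 bases before each annotated start (RefSeq, GRCm38.p6). A RefSeq promoter was at hand for 9 of the 10 genes (all but Per2), with 13 starts in all. The motifs searched on both strands were the E-box CACGTG, the E'-box CACGTT, the D-box TTANGTAA, the cAMP response element TGACGTCA and the ROR half-site AGGTCA. The E-box and E'-box differ in 1 base and were counted apart, and no matches of the clock genes overlapped. Stretches with an E-box, E'-box or D-box are shown for 4 of the clock genes, 2 that fell and 2 that rose, with Ciart, a repressor of CLOCK-BMAL1, added for its 3 E-boxes. Capitals mark the motif (an E'-box reads AACGTG on the other strand), and each line is the strand of the transcript, 5′ to 3′.
Per1, chr11:69098753-69098818, plus strand, E-box: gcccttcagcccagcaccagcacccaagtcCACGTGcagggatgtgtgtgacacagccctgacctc
Cry1, chr10:85185079-85185163, minus strand, E'-box and E-box: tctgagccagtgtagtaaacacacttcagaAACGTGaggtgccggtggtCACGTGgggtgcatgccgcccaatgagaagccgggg
Nr1d1, chr11:98775378-98775435, minus strand, E'-box: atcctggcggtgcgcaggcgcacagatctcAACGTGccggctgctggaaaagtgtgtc
Per3, chr4:151044786-151044900, minus strand, D-boxes: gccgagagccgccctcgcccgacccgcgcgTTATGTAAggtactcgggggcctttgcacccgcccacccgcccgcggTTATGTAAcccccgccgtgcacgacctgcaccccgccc
Ciart, chr3:95882237-95882374, minus strand, E-boxes: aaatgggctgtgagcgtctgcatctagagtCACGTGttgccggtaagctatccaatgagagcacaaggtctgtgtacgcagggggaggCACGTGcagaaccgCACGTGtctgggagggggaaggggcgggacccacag

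E-boxes stood before 2 of the 9 clock genes searched, Per1 and Cry1, and 6.02% of all 32851 RefSeq promoters hold this motif in the same window. Clock genes were counted if any of their starts had the motif (13 starts in all), while the shares are per promoter. The counts and shares are thus not in the same unit. In Per1 it began at position -166 from an annotated start, within the GENCODE span of the gene, and in Cry1 at -60. The E'-box was found before Cry1, Cry2 and Nr1d1 (3.85% of all promoters), and among the 9 genes a D-box only before Per3, which had 2 copies, at -205 and -158 (2.06% of all promoters). ROR half-sites were present before Per1, Clock and Nr1d2 (14.02% of all promoters), and the full cAMP response element before 0 of the 9 (1.55%). Arntl and Dbp held none of these letters in this window. For every gene and motif, the cAMP response element of Per1 included, a miss in this window says nothing about sites elsewhere. With a share of 1.55% among all promoters, finding 0 is no result about these genes.

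**Figure D1:**
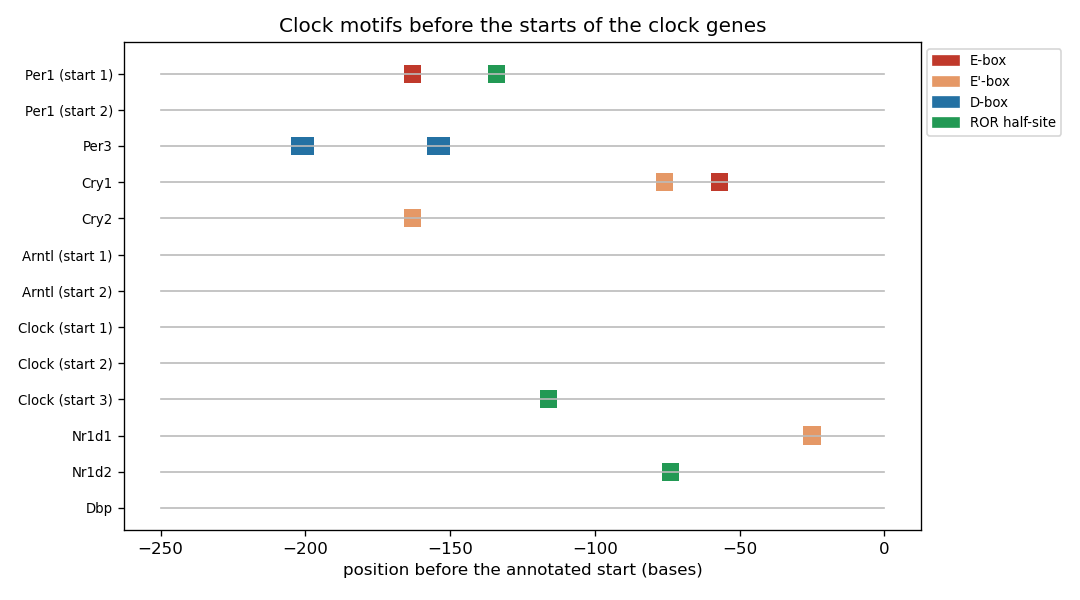
Positions of motifs in the 250 bases before each annotated start of the clock genes, in bases from the start (x axis), with 1 line per start and colors for the motif. The 2 D-boxes of Per3 and the E'-box and E-box pair of Cry1 are the only starts with more than 1 D-box, E-box or E'-box.

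After 4 hours with CpG, the clock genes did not move as a block. Per1, Arntl, Clock, Nr1d1 and Nr1d2 fell, Per2, Per3 and Cry1 rose, and Cry2 and Dbp did not pass. With the replicate number as a block, Cry2 passed as well (FDR = 0.0112 from limma). All 10 passed the filter on low values, and 8 were called at an FDR under 0.05 (limma with Benjamini-Hochberg adjustment over 11233 genes). This share is near that of all genes, of which 74.3% were called, so the number of clock genes called is no result about them. Of all genes tested 37.6% were called higher and 36.7% lower, against 3 and 5 of the clock genes. The groups did not overlap in 8 of the 10, where 77.7% of all genes tested did not overlap. Per3 was called with a log2FC over 1, as were 15.8% of all genes tested, and Per1, Arntl and Nr1d1 with a log2FC under -1, as were 15.3%. The median log2FC of the 10 was -0.47, and that of all genes tested 0.0033.

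**Figure D2:**
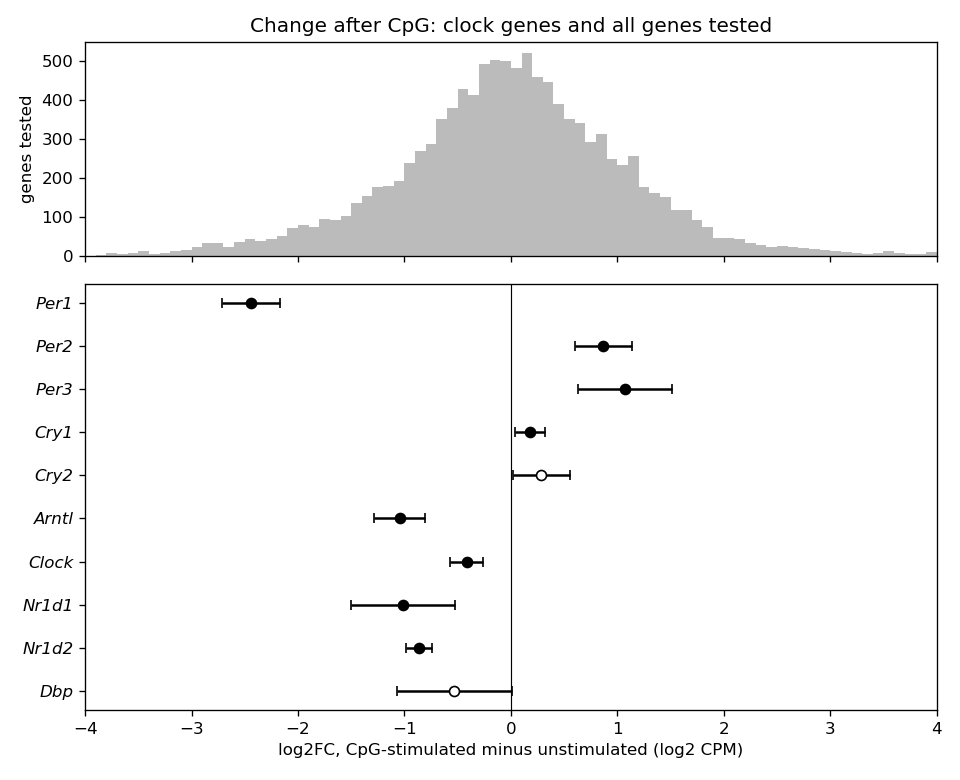
Upper panel, number of genes tested (y axis) by log2FC, CpG-stimulated minus unstimulated (x axis, drawn from -4 to 4, with 51 genes beyond). Lower panel, log2FC of each clock gene with its 95% confidence interval from limma, filled where the FDR was under 0.05; Per1 lies at -2.44, the other called genes between -1.04 and 1.07.

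Per1, a repressor gene that is also an early response gene, changed most. It lies on chromosome 11, from 69095217 to 69109960 of GRCm38 on the plus strand. Its expression was 9.57, 9.48 and 9.30 log2 CPM in unstimulated replicates 1 to 3 and 6.94, 7.29 and 6.78 in the CpG-stimulated ones. Every stimulated sample was thus more than 2 log2 units under every unstimulated sample. The means were 9.45 ± 0.14 and 7.00 ± 0.26 (SD, n = 3 each), which is 5.44-fold lower with CpG. The log2FC was -2.44 (95% confidence interval -2.71 to -2.17, standard error 0.12, FDR = 7.88e-08 from limma). Of the 11233 genes tested, 256 had a more negative log2FC.

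Per2, on chromosome 1 from 91415982 to 91459324, moved the other way, although its protein is a repressor of the same complex. It was at 4.09, 4.10 and 4.02 without CpG and at 5.15, 4.67 and 4.99 with CpG, so the groups were apart and the stimulated samples spread more. The log2FC was 0.87 (0.60 to 1.13, standard error 0.12, FDR = 8.10e-05 from limma), or 1.83-fold. Per3, the third paralog, lies on chromosome 4 from 151003652 to 151044665. Values were 2.10, 1.98 and 2.42 without CpG and 3.54, 2.84 and 3.33 with CpG, again without overlap. This is a log2FC of 1.07 (0.63 to 1.51, standard error 0.20, FDR = 0.00065 from limma), or 2.10-fold. The span of Per3 lies within that of Camta1 on the same strand, but their exons share 0 bases.

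Replicate 2 had the smallest difference of the 3 replicate numbers in all 3 Per genes. It was -2.19 for Per1, against -2.63 and -2.51, 0.57 for Per2, against 1.06 and 0.97, and 0.86 for Per3, against 1.45 and 0.91. Replicate 2 also had the highest erythroid values in both groups (Beta-s, a globin gene, 12.2 with and 11.8 without CpG, against 8.46 to 9.10 in the other samples), and their part in these differences was not tested. Without both samples numbered 2, the log2FC was -2.57 for Per1, 1.02 for Per2 and 1.18 for Per3.

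The opposite changes altered the make-up of Per transcripts. Per kb of exon, Per1 made up 97.4% ± 0.24 of the CPM of the 3 genes in unstimulated cells and 78.2% ± 5.5 in CpG-stimulated cells (SD, n = 3). Per2 went from 2.26% ± 0.16 to 18.3% ± 4.4, and Per3 from 0.374% ± 0.096 to 3.48% ± 1.1. Per1 was still the main transcript, at 74.9% to 84.5% in the stimulated samples. The sum of the 3 was 128 ± 12 CPM per kb without and 29.3 ± 3.4 with CpG, a ratio of 4.35.

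**Figure D3:**
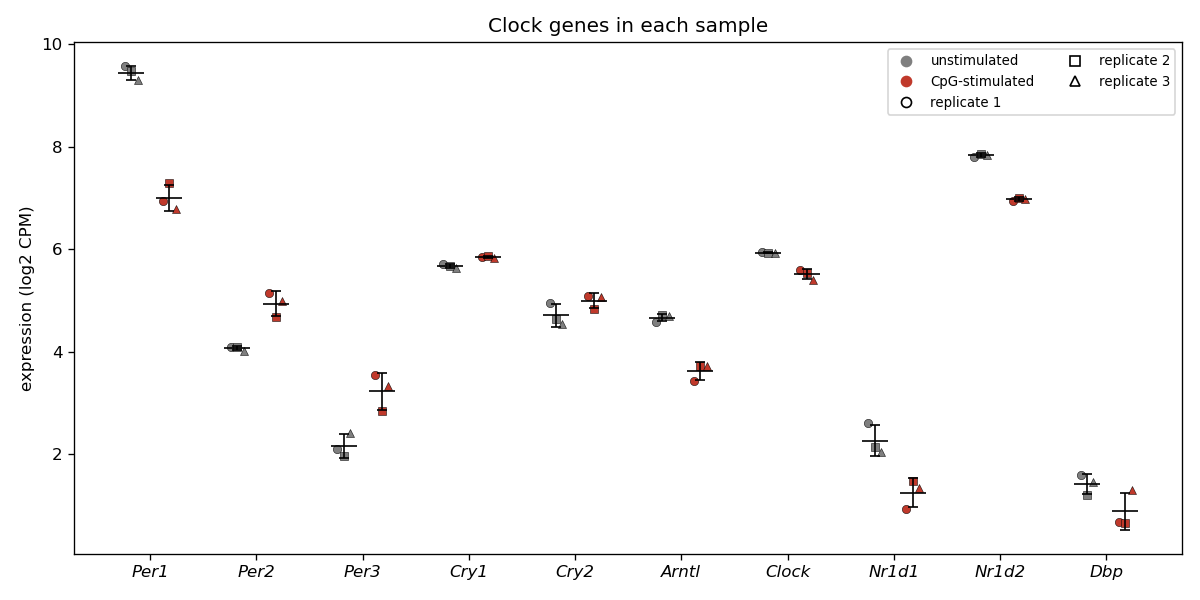
Expression of the 10 clock genes in each sample (log2 CPM), gray for unstimulated and red for CpG-stimulated cells, with the replicate number as the shape and the mean and SD (n = 3) as a bar. Per1, Arntl, Clock, Nr1d1 and Nr1d2 lie lower in all stimulated samples, Per2, Per3 and Cry1 higher, and the groups overlap for Cry2 and Dbp.

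The cryptochrome genes, whose products bind CLOCK-BMAL1 together with PER proteins, moved little. Cry1 (chromosome 10, from 85131700 to 85185064) was at 5.72, 5.68 and 5.64 without CpG and at 5.86, 5.88 and 5.84 with CpG. The groups were apart because the replicates were close, with an SD of 0.042 and 0.018. The log2FC was 0.18 (0.037 to 0.32, standard error 0.063, FDR = 0.0261 from limma), and the call was lost in 4 of the 6 fits that left out 1 sample and, at an FDR of 0.0781 (limma), without both samples numbered 2. Cry1 lost it without CpG-stimulated replicate 1 (FDR 0.0524), CpG-stimulated replicate 3 (0.0623), unstimulated replicate 2 (0.0679) or unstimulated replicate 3 (0.0876, all from limma).

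Cry2 (chromosome 2, from 92403646 to 92434043) was at 4.96, 4.64 and 4.54 without CpG and at 5.08, 4.83 and 5.08 with CpG. These groups overlapped, as unstimulated replicate 1 was above stimulated replicate 2. The log2FC of 0.28 (0.015 to 0.55) had an FDR of 0.0538 (limma), and Cry2 was higher with CpG in 3 of 3 replicate numbers. With the replicate number as a block the FDR was 0.0112 (limma), which is a call. A call was also made without CpG-stimulated replicate 2 (FDR 0.0179) or without unstimulated replicate 1 (0.00791, both from limma). The antisense gene D930015M05Rik shares 295 exon bases with Cry2, at -0.48 with and -1.17 without CpG, and whether the authors' counting used the strand is not stated.

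Both activator genes fell. Arntl (chromosome 7, from 113207465 to 113314126), whose product BMAL1 is the partner of CLOCK, was at 4.59, 4.72 and 4.69 without CpG. With CpG it was at 3.42, 3.72 and 3.73, below every unstimulated sample. The log2FC was -1.04 (-1.28 to -0.80, standard error 0.11, FDR = 9.93e-06 from limma), or 2.06-fold lower. Clock (chromosome 5, from 76209868 to 76304792) was at 5.95, 5.93 and 5.92 and fell to 5.60, 5.55 and 5.41. Its log2FC of -0.42 (-0.57 to -0.26, standard error 0.071, FDR = 0.000380 from limma) was smaller than that of Arntl, and both kept their calls in each of the 6 fits that left out 1 sample.

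The REV-ERB genes fell to a similar degree, from levels far apart. Nr1d2 (chromosome 14, from 18204054 to 18239127) had close replicates, with 7.81, 7.87 and 7.85 without CpG and 6.94, 7.01 and 6.99 with CpG. The log2FC was -0.86 (-0.99 to -0.74, standard error 0.056, FDR = 3.99e-07 from limma), or 1.82-fold lower. Nr1d1 (chromosome 11, from 98767932 to 98775333) was low, with 2.62, 2.15 and 2.04 without CpG and 0.94, 1.48 and 1.35 with CpG. These means correspond to 85.2 and 41.9 reads, so its values carry more counting error than those of Nr1d2. Its log2FC was -1.02 (-1.50 to -0.53, standard error 0.22, FDR = 0.00178 from limma), or 2.02-fold lower, with differences of -1.69, -0.67 and -0.69 in replicates 1 to 3.

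Nr1d1 shares 263 bases, 8.55% of its exon bases, with Thra, a thyroid hormone receptor gene on the opposite strand. Thra was at 3.07, 2.66 and 2.61 without CpG and at -0.49, 0.82 and 0.85 with CpG, so it was highest without and lowest with CpG in replicate 1, as Nr1d1 was. Its log2FC was -2.39 (standard error 0.34, FDR = 0.000107 from limma). The library kit marks strand, but the strand setting of the counting is not stated. How reads of the shared bases were counted is thus not known, and their part in the change of Nr1d1 was not tested.

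Dbp (chromosome 7, from 45705088 to 45710203), an activator of D-box genes, was the gene with the fewest reads. It was at 1.59, 1.21 and 1.46 without CpG and at 0.69, 0.66 and 1.31 with CpG, where stimulated replicate 3 overlapped with the unstimulated samples. The means correspond to 47.1 and 32.4 reads. The log2FC of -0.53 (-1.07 to 0.0070, standard error 0.24) had an FDR of 0.0686 (limma), and Dbp was lower with CpG in 3 of 3 replicate numbers. Without CpG-stimulated replicate 3 the FDR was 0.0200 and the log2FC -0.75 (limma). Of its exon bases, 539 are shared with Sphk2 on the opposite strand, which was higher than Dbp at 5.73 without and 5.84 with CpG.

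Pairs of clock genes were also compared within each sample, on the quantile-normalized values. Of 8 pairs, 3 had groups that did not overlap, each at an exact two-sided permutation p of 0.1, the smallest that 3 against 3 samples allow (adjusted p = 0.267 over the 8 pairs). Per1 exceeded Per2 by 5.38 ± 0.10 in unstimulated and by 2.06 ± 0.48 in CpG-stimulated samples (log2, SD, n = 3), so that their ratio was 9.93 times lower. The ratio of Per1 to Per3 was 11.4 times lower, with differences of 7.28 ± 0.35 and 3.77 ± 0.59. Arntl lay 1.27 ± 0.078 under Clock without CpG and 1.89 ± 0.25 under it with CpG, a ratio 1.55 times lower.

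The other 5 pairs overlapped. Per2 minus Per3 was 1.91 ± 0.27 and 1.70 ± 0.12 (SD, n = 3; exact permutation p = 0.4), Cry1 minus Cry2 0.97 ± 0.18 and 0.86 ± 0.16 (p = 0.7), without and with CpG. Arntl and Nr1d1, repressed gene and repressor, kept nearly the same distance, at 2.40 ± 0.37 and 2.37 ± 0.12 (SD, n = 3; exact permutation p = 1). Nr1d1 minus Nr1d2 was -5.57 ± 0.34 and -5.73 ± 0.25 (p = 0.6, exact, n = 3), and Dbp minus Arntl -3.25 ± 0.26 and -2.74 ± 0.32 (p = 0.2). A p that misses the threshold in so small a design does not show that the paired genes changed alike.

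**Figure D4:**
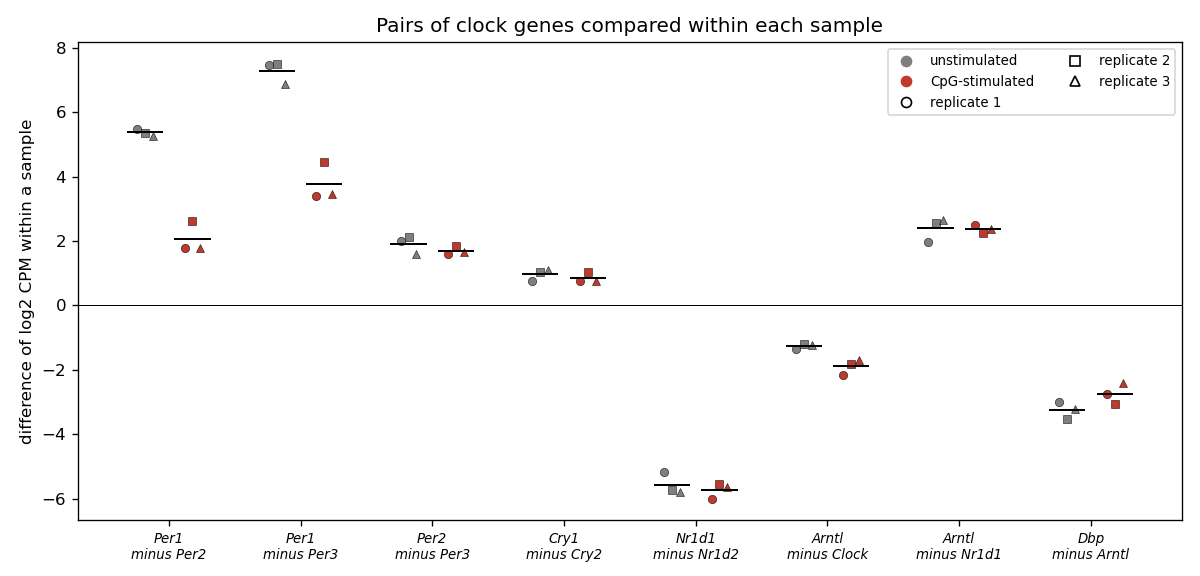
Difference in log2 CPM between 2 clock genes within each sample (y axis), with gray for unstimulated and red for CpG-stimulated samples, the replicate number as the shape and the group mean as a line. The groups separate for Per1 minus Per2, Per1 minus Per3 and Arntl minus Clock, and overlap for the other 5 pairs.

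To compare levels between genes, log2 CPM was set per kb of exon (GENCODE M21). In unstimulated cells Per1 was highest at 6.95 ± 0.14 log2 CPM per kb (SD, n = 3), followed by Nr1d2 at 5.41, Cry1 at 3.94, Clock at 2.16, Cry2 at 2.05, Arntl at 1.76, Per2 at 1.52, Nr1d1 at 0.65, Dbp at -0.16 and Per3 at -1.10. Each gene lay above the next in all 3 samples except Clock and Cry2, which overlapped. With CpG the upper end changed, with Nr1d2 at 4.55 ± 0.036 and Per1 at 4.51 ± 0.26, which overlapped. Cry1 followed at 4.12, Per2 rose in the order from place 7 to place 4 at 2.39, and Per3 from 10 to 8. Per2 and Cry2 overlapped there, as did Per3, Nr1d1 and Dbp in neighboring places.

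The other genes of the clock pathway were read from 5 lists with 71 genes in the files, of which 65 passed the filter. Of these 26 were called higher and 28 lower (83.1% in all, against 74.3% of all genes tested), and their median log2FC was -0.026. The counts of the single lists stand beside the same background, and nothing about the lists is read from them. Among the 12 other clock transcription factors 7 were tested, with 3 higher and 2 lower. Ciart (listed as Gm129), whose promoter is shown above with its E-boxes, rose from 3.34, 3.22 and 3.13 to 4.41, 4.22 and 4.25. Its log2FC was 1.07 (standard error 0.10, FDR = 7.28e-06 from limma). Nfil3, which represses D-box genes, rose from 3.57, 3.93 and 3.21 to 4.62, 5.06 and 4.59 (log2FC 1.19, standard error 0.18, FDR = 0.000201 from limma).

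The repressors DEC1 and DEC2, which compete for E-boxes, went in opposite directions. Their genes are Bhlhe40, which rose from 8.64 ± 0.20 to 9.02 ± 0.061 (SD, n = 3), and Bhlhe41, which fell from 5.76 ± 0.037 to 4.40 ± 0.19. The log2FC values were 0.38 and -1.37 (FDR = 0.00378 and 7.39e-07 from limma). Bhlhe40 was not called when the filter was left out (FDR 0.0655, limma). Arntl2, a paralog of Arntl, fell with a log2FC of -1.61 (FDR = 0.00342, limma), but passed the filter only through the unstimulated samples, so it had to differ. Its mean with CpG, -1.56, is under the value of 10 reads, and on log2(CPM + 1) its log2FC was -0.60.

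Tef, a paralog of Dbp, was at 5.67 without and 5.41 with CpG and missed the threshold (FDR 0.0536, limma). With the replicate block it passed (FDR 0.0130), as it did without CpG-stimulated replicate 1 (0.0110, both from limma). Cipc (listed as 2310044G17Rik), an inhibitor of CLOCK-BMAL1, had a log2FC of 0.13 and an FDR of 0.111 (limma). Npas2, Rora, Rorb and Hlf were among those too low to be tested, with group means from -5.152 to -1.28. Rora, which encodes an activator opposing REV-ERB, was at -2.88 with and -1.28 without CpG.

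E-box genes went in different directions. Among genes with an E-box in the window and a call, Per1 and Bhlhe41 fell, and Cry1 and Ciart rose. The rise of Cry1 was small (log2FC 0.18), and its call was lost in 4 of the 6 fits that left out 1 sample. Per2 was not searched. The E-boxes of Tef and Cipc stood before genes that were not called.

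Of the enzymes that modify clock proteins 20 were tested, with 6 higher and 10 lower (80% called, against 74.3% of all genes tested). Gsk3b, a kinase of several clock proteins, fell by 1.66 on the log2 scale, from 7.03 ± 0.066 to 5.37 ± 0.051 (SD, n = 3). Siah2, a ubiquitin ligase for REV-ERB, rose by 1.58, and Btrc, a ligase component that binds phosphorylated PER, fell by 1.13. Prkaa2, a subunit of AMP-activated kinase, which marks CRY proteins for decay, passed the filter only through the stimulated samples and so had to differ. Its log2FC was 3.19 on the deposited scale and 1.54 on log2(CPM + 1), from an unstimulated mean of -1.68, under the value of 10 reads. The casein kinase 1 genes fell slightly, with Csnk1d at a log2FC of -0.40 and Csnk1e at -0.28. These last 2 were chosen after their values were seen. Their FDR values were 0.000221 and 0.0412 (limma), and the groups overlapped for Csnk1e.

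All 23 clock cofactors passed the filter, with 9 higher and 10 lower (82.6% called, against 74.3% of all genes tested). The acetyltransferase genes Kat2b, Ep300 and Crebbp fell, with a log2FC of -2.15, -1.17 and -1.12. Of the deacetylase genes, Hdac2 rose by 1.22, Hdac1 by 0.45 and Hdac3 by 0.34, and Sirt1 fell by 0.78, the last 3 being named after their values were seen. Of the 7 clock output genes tested, 3 were higher and 2 lower. Tsc22d3, which encodes the glucocorticoid-induced protein GILZ, fell from 8.89, 9.23 and 9.04 to 5.77, 6.80 and 5.90. This log2FC of -2.90 (standard error 0.22, FDR = 1.20e-06 from limma) was larger in size than that of Per1. Wee1, a brake on mitosis with an E-box driven promoter in liver, rose by 1.95, and Noct (listed as Ccrn4l), the gene of the phosphatase nocturnin, by 1.81. Tspan4 had a log2FC of 1.08 and an FDR of 0.0356 (limma), which was lost in 5 of 6 fits without 1 sample. Its groups overlapped.

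The 9 factors through which outside signals act on Per genes were all called, 5 higher and 4 lower, where 74.3% of all genes tested were called. Crem, which encodes cAMP-responsive activators and repressors, fell from 9.25, 9.50 and 9.45 to 6.68, 7.16 and 6.86 (log2FC -2.50, standard error 0.11, FDR = 5.35e-08 from limma). Nr3c1, the glucocorticoid receptor gene, fell by 1.71 and Sik1, a kinase gene induced by cAMP that restrains CREB coactivators, by 1.46. The gene of the CREB coactivator Crtc2 rose by 1.03.

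**Figure D5:**
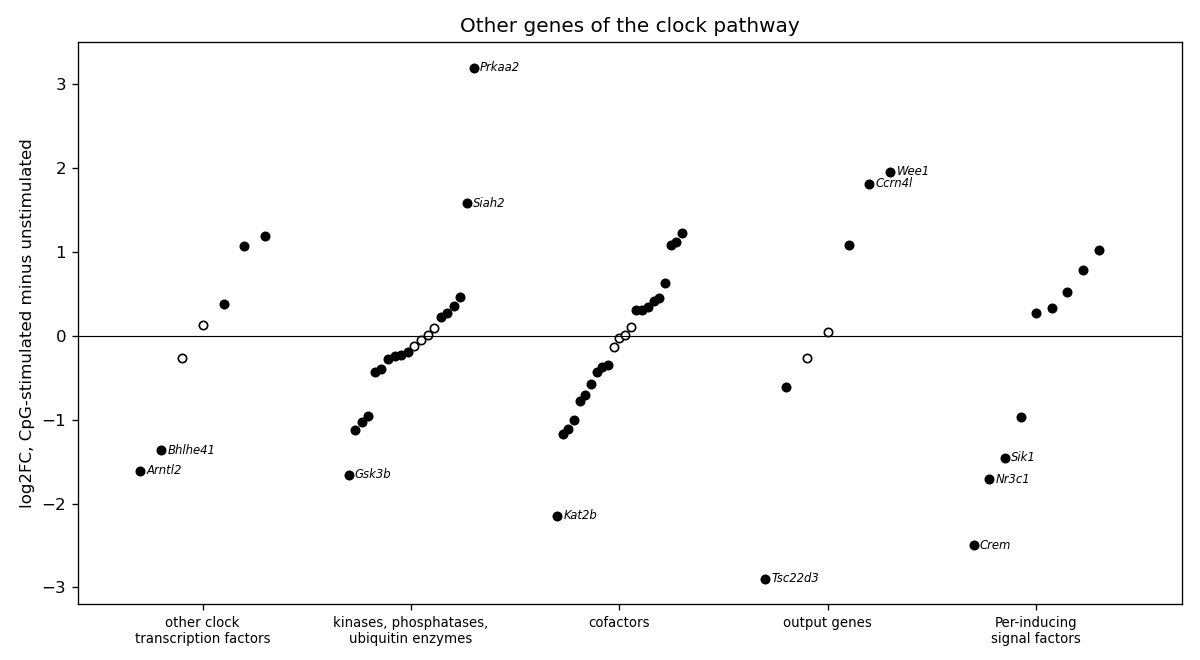
Log2FC of the tested genes of 5 lists of the clock pathway (y axis, CpG-stimulated minus unstimulated), filled where the FDR was under 0.05 and named where it was beyond 1.3 in either direction; Tef is in 2 lists. Called genes lie on both sides of 0 in each list, from Tsc22d3 at -2.90 to Prkaa2 at 3.19 (1.54 on log2(CPM + 1)), which passed the filter only through the stimulated samples.

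Outside these lists, the genes most like Per1 over the 6 samples were Trp53inp2, Sla and Apoe, each centered on its own mean. Their root mean square differences from Per1 were 0.0579, 0.0914 and 0.105 log2 units. Ctnnal1, Rilpl1 and 1700120K04Rik were closest to Per3, the clock gene with the largest rise, at 0.0512, 0.0529 and 0.0882.

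The cells were checked against markers. All 10 B cell markers were expressed, with summed levels of 12.1 to 12.3 log2 CPM without and 11.7 to 11.9 with CpG. Of 6 T cell markers 1 passed the filter (Lck, 6.38 without and 7.05 with CpG), and of 4 NK cell markers 0 did. Among the latter, Klrb1c was at -4.65 without and -0.13 with CpG, higher in 3 of 3 replicate numbers, and was not tested because stimulated replicate 1, at -0.84, was under the value of 10 reads. Of 6 myeloid markers 5 passed, with summed levels of 2.88 to 3.85 without and 3.32 to 3.96 with CpG. Emr1 was called higher (log2FC 0.83, groups overlapping), Cd14 (-1.73) and Csf1r (-1.61) lower, and Lyz2 and Itgam were not called. Cd14 and Csf1r passed the filter only through the unstimulated samples and so had to differ. Of 4 plasmacytoid dendritic cell markers 3 passed. Of these, Tcf4 and Ccr9 fell, with a log2FC of -1.24 and -0.94, and Bst2 rose by 0.92, while Siglech was not tested, at -3.63 without and -2.66 with CpG. Summed erythroid markers ranged from 8.63 to 12.3 with Hba-a1 and Hba-a2 at the level without reads. All 5 plasma cell markers were tested, with 1 higher and 3 lower. Of 8 genes of the TLR9 response 7 were higher, among them Il6 (log2FC 5.30), Tnf (3.03) and Nfkbia (1.83), and Cd86 was lower. Of all genes tested, 37.6% were called higher and 36.7% lower. Nothing about the plasma cell or TLR9 lists is read from their counts. The part of other cell types in the clock gene values was not tested.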

How the data were processed

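RNA-seq values of 6 samples were used, grouped by their titles. Per the labels and methods, the authors trimmed reads of 75 bases (Trim Galore 0.6.5), aligned them to mm10 (STAR 2.6.1a), counted them per gene (featureCounts, Subread 2.0.1), and deposited log2 CPM values after quantile normalization and voom. Of all values 5.72% lay under that of a gene without reads, and the step behind this is not given in the sources used here. In Nkg7 and Rorb, for example, samples of the same replicate number had the same value in both groups. Nkg7 was at -5.27, -5.415 and -4.771 in replicates 1 to 3 with and without CpG. The deposited values of such genes thus differ by replicate number.

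The test between groups was that of limma 3.58.1 (R 4.3.3; lmFit, eBayes with trend, two-sided) on the deposited values of 11233 genes with at least the value of 10 reads in at least 3 samples, with Benjamini-Hochberg adjustment (FDR), called under 0.05. Labels give 3 mice for both groups but not which sample came from which. Replicate 3 was the only male sample of each group. If every mouse gave a sample to each group, the samples numbered 3 thus came from the same mouse. p-values of the main fit measure the spread between these samples and ignore any such pairing. Deviations from the group mean correlated at 0.435, 0.224 and 0.300 between samples of the same number and at -0.281 to 0.0279 otherwise. As some genes had the same value by number in both groups (Nkg7, above), this cannot show by itself that the numbers pair the samples. The part of the values under the no-read level in this was not tested. The main fit had no block, and fits with a replicate block were run beside it. Differences between 2 genes used exact permutation tests.

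The 10 members and all lists were chosen with earlier results of these data known. Genes named are the members, the tested other clock transcription factors, up to 4 called genes with the largest change per further list, and the 3 most alike for Per1 and Per3. Older symbols were matched through RefSeq. Trac and Ly6g had no match, and some listed genes are counted but not reported singly here. Gene spans and exons are from GENCODE M21 (GRCm38), and the annotation used for counting is not given in the sources used here. Alternatives covered the filter, block, scale, trend, centering and left-out samples. The procedure was tested on simulated data. DESeq2 and edgeR need counts and were not run.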

Additional observations from a re-analysis of the deposited data

How the results depend on the processing

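The direction of each of the 10 clock genes was the same under 13 alternatives, and of 130 values 121 kept their call, 5 lost it (Cry1) and 4 gained it (Cry2 and Dbp). Of 291 values of 23 other named genes 282 kept it, 7 lost it and 2 gained it, without a change in direction. Arntl2 and Prkaa2 could not be tested with 10 reads in all 6 samples or in 3 of the 6 fits without 1 sample, and on log2(CPM + 1) their log2FC was -0.60 and 1.54. The replicate block, with 4 clock genes higher and 5 lower, changed the call of Cry2 and Tef and of no other named clock-pathway gene. Of the erythroid markers, Beta-s, Slc4a1 and Bpgm passed only with it (Beta-s at an FDR of 0.0245 from limma, against 0.856). The numbers of clock genes called were 2 to 4 higher and 5 to 6 lower without each sample in turn, of the other clock-pathway genes 23 to 25 and 23 to 29, and of all genes 3783 to 4124 and 3721 to 4147. Centering samples on their median moved the median log2FC of all genes to -0.001. On log2(CPM + 1) the change of Nr1d1 minus Nr1d2 turned from -0.16 to 0.074. Without each sample in turn this change ran from -0.27 to 0.037, and that of Arntl minus Nr1d1 from -0.24 to 0.0995. The causes were not tested. The ratio of Per1 to Per2 changed by -3.59 to -3.17 and that of Per1 to Per3 by -3.86 to -3.33 in log2 units. Reads limit Dbp and Nr1d1, and 5 genes of the pathway list of transcription factors were too low to test. The fits without both samples numbered 2 were chosen after seeing the data. They left 2 clock genes higher and 5 lower.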
